A study of Mus musculus with 3 samples.

Results

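The Hox genes are the 39 protein-coding genes of the mouse whose symbols are Hoxa, Hoxb, Hoxc or Hoxd followed by a number. They were taken by symbol from RefSeq's gene table of GRCm38.p6, the same assembly as mm10, where they are 39 of 21631 protein-coding genes on chromosomes 1 to 19 and X. They fall into 4 clusters: 11 genes of HoxA on chromosome 6, 10 of HoxB on chromosome 11, 9 of HoxC on chromosome 15 and 9 of HoxD on chromosome 2. The study used CUT&RUN, in which an antibody tethers a nuclease that releases DNA next to the bound protein, to map Atoh7 in the retina of C57Bl6/J mouse embryos at embryonic day 14. The labels list 2 Atoh7 libraries and 1 IgG control library, and name no genotype or treatment besides the strain. They do not say how many animals went into a library, nor whether both Atoh7 libraries share animals. The data are 1 list of 3668 peaks (median width 381 bp), of which 3662 lie on chromosomes 1 to 19 and X, with positions and widths but no height and no value per library. Depth is therefore unknown, no comparison of replicates was possible, and the IgG control is not analysed here. The series measured no RNA, so that the Hox genes are silent in the retina is background here and was not checked.

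Hox genes encode homeodomain transcription factors that give cells of the hindbrain, spinal cord, trunk and limbs their position along the body axis, and their order within a cluster follows the order in which they are switched on from head to tail. The eye forms in front of the Hox domain, where the clusters are kept off by Polycomb group proteins. Atoh7 is a proneural basic helix-loop-helix (bHLH) factor of retinal progenitors needed for most retinal ganglion cells, and bHLH dimers recognise E-boxes, short motifs of the form CANNTG.

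No Atoh7 peak was centred inside a Hox gene or within 100 kb of one, in any of the 4 clusters. The windows searched ran from 100 kb before the first to 100 kb after the last Hox gene of a cluster. They were chromosome 6, 52055367 to 52360880 (HoxA, 306 kb), chromosome 11, 96094316 to 96468254 (HoxB, 374 kb), chromosome 15, 102821131 to 103136856 (HoxC, 316 kb), and chromosome 2, 74568225 to 74865142 (HoxD, 297 kb). Together they spanned 1.29 Mb and held 0 peaks, which allows up to 2.32 peaks per Mb (3 peaks over that length, counting error only). The whole list has 1.40 peaks per Mb, or 1.81 peaks over the same length, so that a density as low as the mean of the list could not be told from 0 in the 4 windows. By gene, 0 of 39 had a peak within 100 kb, where 34.9% of all protein-coding genes did. It follows that 0 of 39 was the gene nearest to a peak within that distance, where 11.1% of all genes were. Both counts by gene are fixed by the empty windows and add no further result. Genes of a cluster share their surroundings, so these 39 genes amount to 4 loci and not to 39 independent observations. The windows also held, in whole or in part, 7 other protein-coding genes, 35 long noncoding RNA genes and 6 miRNA genes. Unlike the Hox genes, some of these 7 had a peak within 100 kb, outside the windows. Lnpk, which runs past its window, held 1, and Calcoco2, Ttll6 and Skap1 were 22.9, 48.4 and 64.6 kb from one. Evx2, Mtx2 and Evx1 were 104, 255 and 266 kb from one.

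The Hox promoters lie inside these windows, and their sequences show which E-box letters the windows hold at gene starts. RefSeq promoter sequences (GRCm38.p6) were found for 22 of the 39 Hox genes, as 24 promoters, and the 250 bases before each start were searched for E-boxes. That no peak overlapped any of the 24 follows from the empty windows and is no further result, and only 2.61% of all 32619 promoters were overlapped by a peak. The motif CANNTG, which reads the same in both directions, occurred in 17 of 24 Hox promoters (70.8%, 95% Wilson interval 50.8 to 85.1%), in 66.2% of all promoters and in 58.0% of the 851 promoters overlapped by a peak. The hexamer CAGCTG occurred in 3 Hox promoters (12.5%, interval 4.34 to 31.0%), in 13.1% of all promoters and in 22.4% of those overlapped by a peak. The hexamer CAGATG, searched on both strands (CATCTG on the other), occurred in 2 Hox promoters (8.33%), in 14.4% of all and in 14.0% of those overlapped by a peak. Both hexamers are forms of CANNTG. In the 21045 promoters of protein-coding genes, the shares were 62.8% for CANNTG, 12.2% for CAGCTG and 12.3% for CAGATG. The intervals of the Hox shares are wide enough to hold the shares of all promoters, of protein-coding ones and of those overlapped by a peak. The median GC content was 58.6% for the Hox promoters, 52.4% for all, 55.6% for protein-coding ones and 62.8% for those overlapped by a peak. By cluster, CANNTG occurred in 6 of 10 HoxA, 2 of 3 HoxB, 0 of 1 HoxC and 9 of 10 HoxD promoters. All 3 promoters with CAGCTG belonged to HoxA and both with CAGATG to HoxB. These matches describe letters and not sites of binding.

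The 5 Hox promoters that hold CAGCTG or CAGATG are printed because they carry the letters without a peak. They are followed by a pair of promoters that a peak overlaps, that of Atoh7 itself and that of Atp5g1, which encodes a subunit of mitochondrial ATP synthase and lies by the peak closest to any Hox gene. Capitals mark every CANNTG, and each sequence is the 250 bases before the start, 5′ to 3′ on the strand of the gene.
Hoxa3 (chr6:52213068-52213317, - strand): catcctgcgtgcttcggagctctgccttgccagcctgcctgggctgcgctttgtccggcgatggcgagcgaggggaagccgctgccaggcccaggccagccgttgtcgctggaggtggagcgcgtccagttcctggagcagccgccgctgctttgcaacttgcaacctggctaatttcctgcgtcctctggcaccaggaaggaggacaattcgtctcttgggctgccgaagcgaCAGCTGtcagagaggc
Hoxa5 (chr6:52204588-52204837, - strand): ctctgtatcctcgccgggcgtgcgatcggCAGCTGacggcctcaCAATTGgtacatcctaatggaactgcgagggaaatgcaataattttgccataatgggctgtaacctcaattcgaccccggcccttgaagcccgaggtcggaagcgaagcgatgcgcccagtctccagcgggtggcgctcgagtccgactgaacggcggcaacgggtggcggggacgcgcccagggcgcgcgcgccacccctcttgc
Hoxa6 (chr6:52208673-52208922, - strand): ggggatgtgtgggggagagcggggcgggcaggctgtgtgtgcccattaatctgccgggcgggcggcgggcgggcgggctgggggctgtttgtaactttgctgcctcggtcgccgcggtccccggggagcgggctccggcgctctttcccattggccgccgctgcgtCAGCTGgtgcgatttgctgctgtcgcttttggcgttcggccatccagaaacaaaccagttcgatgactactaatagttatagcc
Hoxb1 (chr11:96365508-96365757, + strand): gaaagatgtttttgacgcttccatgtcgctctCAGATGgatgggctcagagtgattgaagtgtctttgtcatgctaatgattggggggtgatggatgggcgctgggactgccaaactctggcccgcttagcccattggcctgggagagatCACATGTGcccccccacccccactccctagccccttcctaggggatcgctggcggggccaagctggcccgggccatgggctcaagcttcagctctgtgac
Hoxb4 (chr11:96318017-96318266, + strand): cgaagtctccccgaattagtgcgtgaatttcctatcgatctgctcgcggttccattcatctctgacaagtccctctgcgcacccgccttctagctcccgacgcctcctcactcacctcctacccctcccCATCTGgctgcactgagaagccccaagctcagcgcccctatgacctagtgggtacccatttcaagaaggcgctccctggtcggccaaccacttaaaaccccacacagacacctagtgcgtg
Atoh7 (chr10:63099535-63099784, + strand): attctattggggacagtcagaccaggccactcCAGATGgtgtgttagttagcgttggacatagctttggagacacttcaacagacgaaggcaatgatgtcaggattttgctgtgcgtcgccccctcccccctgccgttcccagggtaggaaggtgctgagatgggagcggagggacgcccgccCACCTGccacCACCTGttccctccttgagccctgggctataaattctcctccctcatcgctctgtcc
Atp5g1 (chr11:96075632-96075881, - strand): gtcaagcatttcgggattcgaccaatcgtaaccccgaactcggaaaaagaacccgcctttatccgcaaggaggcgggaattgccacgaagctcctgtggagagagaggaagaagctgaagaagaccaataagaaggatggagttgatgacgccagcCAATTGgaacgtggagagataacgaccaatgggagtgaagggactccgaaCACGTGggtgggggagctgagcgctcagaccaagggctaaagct

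Hoxa3 patterns the pharyngeal arches, Hoxa5 the neck and lung, and Hoxb1 a segment of the hindbrain. Hoxb1 had the most E-box matches of any Hox promoter, with 3, of which CACATG and CATGTG overlap, and its total equals that of the Atoh7 promoter. In all, 21 matches were found in the 24 Hox promoters, or 0.875 per promoter. The mean was 1.16 over all promoters, 1.06 over those of protein-coding genes and 0.988 over those with a peak. Counted with its reverse complement, CATGTG was the most frequent form, with 6 matches, followed by CACGTG with 4. The hexamer CACCTG, present 2 times in the Atoh7 promoter shown, was not found in the Hox promoters on either strand.

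The first peaks met on leaving a cluster lay between 118 and 456 kb from its outermost Hox gene, and those just outside the 100 kb limit stood at HoxB and HoxD. On the Hoxb13 side of HoxB, a peak of 550 bp (chromosome 11, 96075767 to 96076316) was centred 118 kb from Hoxb13 and 347 bp outside Atp5g1. On the other side, beyond Hoxb1, the first peak lay 456 kb away inside Nfe2l1, which encodes a transcription factor of the proteasome stress response, and 2 further peaks followed at 508 and 518 kb. Between Hoxb1 and the first of these peaks, the 295 kb gene Skap1, which begins within the HoxB window, held no peak. On the Hoxd13 side of HoxD, a peak of 435 bp (chromosome 2, 74548320 to 74548754) was centred 119.7 kb from Hoxd13, inside Lnpk, which encodes an endoplasmic reticulum protein. It was centred 30.9 kb from the nearer end of that gene. A pair of peaks followed at 216 and 217.5 kb (346 and 937 bp wide, 63.0 and 64.1 kb from Lnpk). Beyond Hoxd1 the first peak lay 367 kb away, 255 kb past Mtx2, inside the noncoding gene Gm13652. HoxD is known to lie between long regulatory domains that drive its genes in limbs. The gene table gives no exons, so that peaks inside genes could not be placed in exons or introns.

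On its nearer side, HoxC stood farther from a peak than HoxB or HoxD, at 179 kb, and HoxA stood farther still. On the Hoxa13 side of HoxA the first was a peak of 495 bp centred 324 kb away, inside Hibadh, an enzyme gene of valine breakdown. On the other side, its nearer one, HoxA was bordered by a peak of 216 bp centred 306 kb away, 9.96 kb from Skap2. At HoxC, a peak of 613 bp lay 179 kb beyond Hoxc4 inside Cbx5, which encodes the heterochromatin protein HP1 alpha. A second on that side was centred 236 kb away, 204 bp from Copz1, a coatomer gene. On the Hoxc13 side the first was a 584 bp peak 296 kb away at an end of Atf7, a transcription factor gene. The 8 peaks that border the clusters were 216 to 613 bp wide, with a median of 465 bp, where the median of the whole list was 381 bp.

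**Figure D1:**
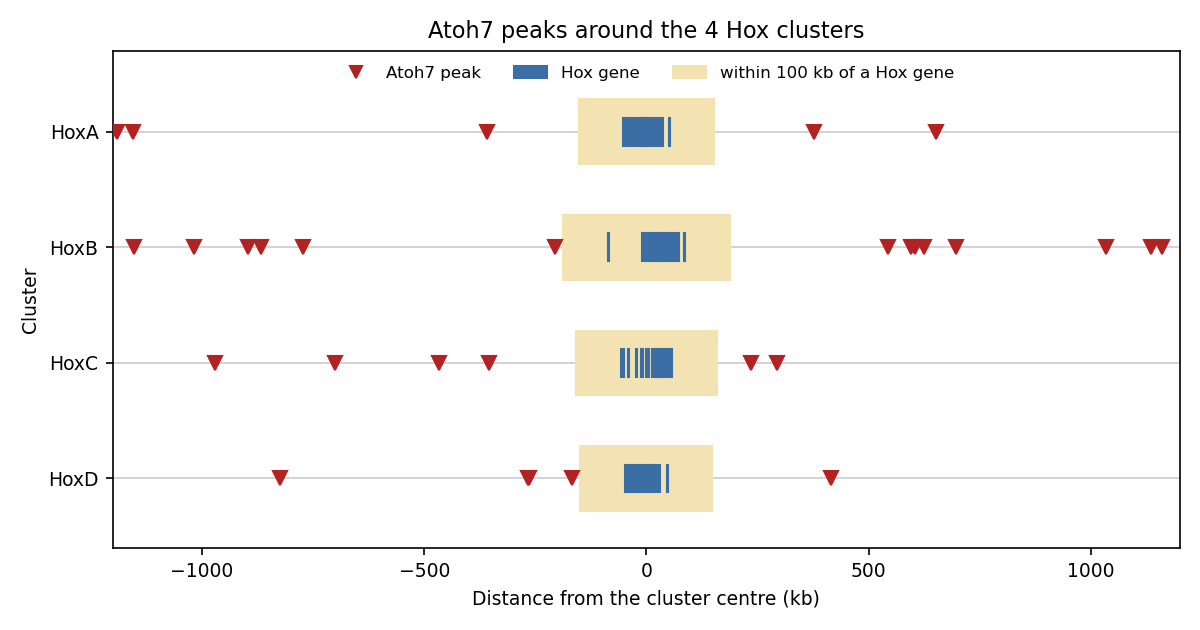
Position of Atoh7 peaks (triangles) around the 4 Hox clusters, drawn to scale as distance in kb from the cluster centre, with Hox genes as blue boxes and the span within 100 kb of a Hox gene shaded. No triangle falls in a shaded span; the closest stand just outside it, at 118 kb from HoxB and 119.7 kb from HoxD.

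Measured gene by gene, Hox genes lay about as far from a peak as protein-coding genes in general. The median distance from a Hox gene to its nearest peak was 231 kb, and over all 21631 protein-coding genes it was 208 kb. HoxA genes were the most distant, with a median of 340.5 kb and a maximum of 366 kb (Hoxa7). HoxC genes ranged from 179 kb (Hoxc4) to 287 kb (Hoxc13), with a median of 231 kb. HoxB genes had a median of 222 kb. Hoxb13, which is separated from the rest of its cluster, stood at 118 kb, and the others ranged from 195 kb (Hoxb9) to 289.7 kb (Hoxb1). HoxD genes were the closest, from 119.7 kb (Hoxd13) to 214 kb (Hoxd1), with a median of 149 kb. The ranges of HoxB, HoxC and HoxD overlapped. Even for Hoxa7, the most distant, 37.0% of all protein-coding genes were at least as far from a peak, and for Hoxb13 62.0% were. Hox genes were thus missing from the near part of the distribution and also from its far part: 25% of all genes had a peak within 52.4 kb, and another 25% had none within 614 kb.

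**Figure D2:**
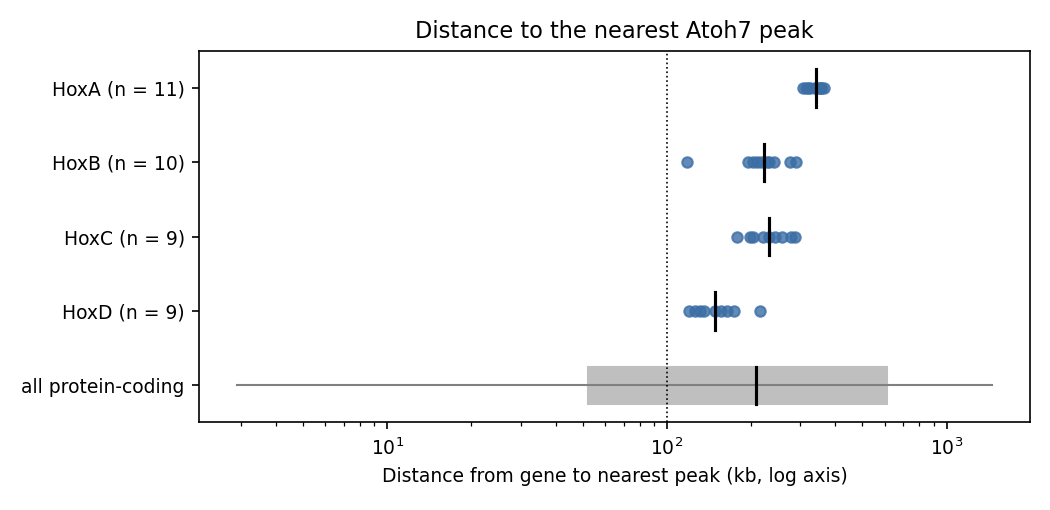
Distance in kb (log axis) from each Hox gene to its nearest Atoh7 peak, 1 point per gene with the cluster median as a bar, above the spread over all protein-coding genes (line 10th to 90th percentile, box 25th to 75th, bar the median of 208 kb). All 39 points lie right of the dotted line at 100 kb and inside the box.

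Beyond the limit, peaks returned. Within 200 kb of a cluster edge there were 3 peaks in all, 1 each at HoxB, HoxC and HoxD and 0 at HoxA, where the density of the list would give 2.93. Within 500 kb there were 12 (2, 2, 4 and 4 at HoxA, HoxB, HoxC and HoxD), where it would give 6.30, and within 1000 kb there were 25, where it would give 11.9. All 39 Hox genes had a peak within 500 kb, as did 70.3% of protein-coding genes, and 12 of 39 had one within 200 kb, as did 49.1%. The neighbourhoods differed: within 1000 kb HoxA, HoxB, HoxC and HoxD had 3, 11, 6 and 5 peaks. The density of the list would give 2.95, 3.05, 2.97 and 2.94. HoxA, HoxB, HoxC and HoxD lie on chromosomes with 1.14, 2.17, 1.13 and 1.9 peaks per Mb. The density of the list takes no account of genes: at the HoxA window length, gene-dense segments held 1.03 peaks on average and all segments 0.428.

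Gene-dense segments of the same length as the Hox windows often held no peak either. Chromosomes were cut end to end into segments of the length of each Hox window, and those with at least as many protein-coding genes as the window (12 for HoxA, 13 for HoxB, 9 for HoxC and 12 for HoxD) were kept. For HoxA, 153 of 316 such segments held no peak (48.4%, 95% Wilson interval 43.0 to 53.9%). For HoxB it was 150 of 339 (44.2%, interval 39.1 to 49.6%), for HoxC 327 of 642 (50.9%, interval 47.1 to 54.8%) and for HoxD 155 of 310 (50%, interval 44.5 to 55.5%). No peak was the most frequent outcome in each set, and each Hox window, taken singly, shared it with about as many gene-dense segments as not. The mean of the segments was 1.03 peaks at the HoxA length, 1.22 at HoxB, 0.95 at HoxC and 1.00 at HoxD. These means add up to 4.2 peaks, where the 4 windows had 0, which allows up to 3. The segments were matched only by a minimum of genes. Their median was 15 genes for HoxA, 16 for HoxB, 12 for HoxC and 15 for HoxD, more than the Hox windows held. Counts varied more between segments than counting error alone gives (variance 1.62 to 1.79 times the mean), and no test of the 4 windows together was made. On the chromosome of the cluster alone, segments without a peak were fewer for HoxB (22.9%, 8 of 35) and HoxC (30.0%, 9 of 30), and 64.3% (18 of 28) for HoxD. Without the condition on genes they rose to 68.1% (HoxB) to 73.1% (HoxD).

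**Figure D3:**
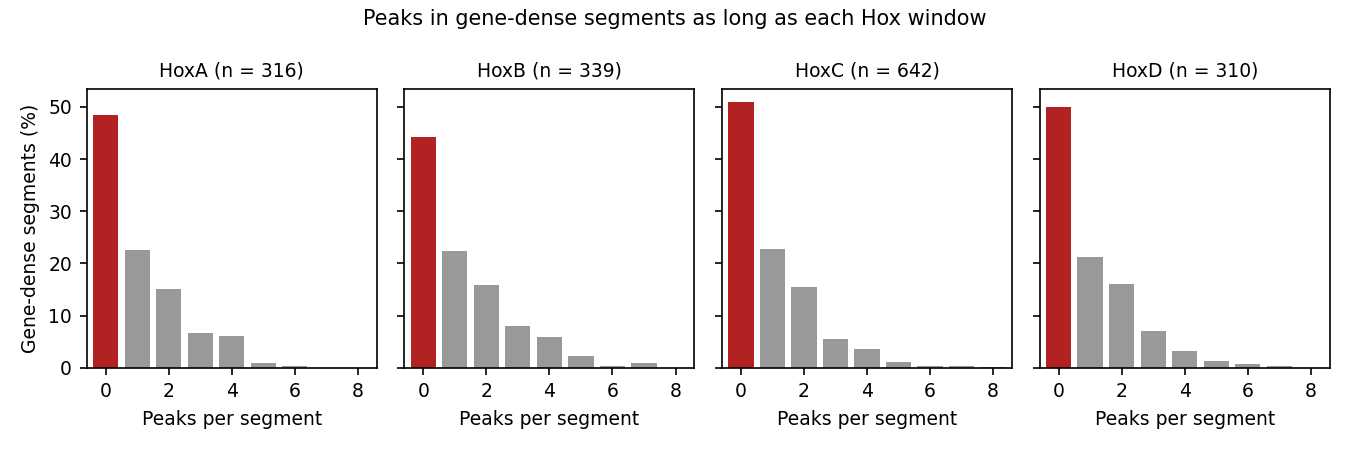
Share in percent of gene-dense segments by the number of Atoh7 peaks they hold, 1 panel per Hox cluster with segments as long as its window. The red bar at 0 peaks, the count found in each Hox window, is the highest in every panel, at 44.2 to 50.9%.

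Many other stretches without peaks were as long as those that contain the clusters. Between the bordering peaks they measured 735 kb (HoxA), 748 kb (HoxB), 589.99 kb (HoxC) and 584 kb (HoxD). Of the 3642 stretches between neighbouring peaks on a chromosome, 25.5% were at least as long as that of HoxA, 25.2% as that of HoxB, 30.9% as that of HoxC and 31.3% as that of HoxD. Long stretches take in more genes, and seen from the genes the Hox stretches were short: among protein-coding genes lying wholly between neighbouring peaks, the median stretch was 1348 kb, and 66.8% (HoxB) to 73.4% (HoxD) of them lay in one at least as long. They were richer in genes than most, with 13, 15, 12 and 11 protein-coding genes for HoxA to HoxD. Stretches with at least that many made up 9.53% (HoxB) to 15% (HoxD) of the total.

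The names of the peaks carry a running number that rises along the list to 7185, so that 3517 numbers are absent, and the names all begin with Atoh7_R1. If the absent numbers also followed the genome, as those present do, which was not tested, the absent ones between the bordering peaks would count the entries that could have lain there. At HoxD the bordering peaks are numbers 3655 and 3656, with no number absent between them over 584 kb. The same held for 260 of the 1141 stretches at least this long. At HoxC 1 number was absent, at HoxB 2 and at HoxA 3. These 6 over 2.66 Mb come to 2.26 per Mb, where the whole list has 1.35 absent numbers per Mb. The densities are not matched for genes, in which the Hox stretches are richer than most, and 6 is a small count. No excess is called. The sources used here do not say where in each stretch the absent numbers lay or why they are absent. On that reading no numbered peak would have fallen in the HoxD window, while in the HoxA, HoxB and HoxC windows up to 3, 2 and 1 may have.

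Other compact homeobox clusters gave mixed counts under the same 100 kb rule. Dlx1/2, genes of amacrine cells and forebrain interneurons, had 3 peaks in 219 kb, all more than 50 kb from the genes. Irx3/5/6 had 4 peaks in 1082 kb and Irx1/2/4 had 4 in 1511 kb. Dlx3/4 and Nkx2-1/2-9 had 1 each. Dlx5/6 and Nkx2-2/2-4 had 0, as the Hox clusters did. The type I keratin cluster, whose genes belong to skin and hair, had 0 peaks in 1237 kb and the type II cluster 2 in 884 kb. These clusters are on chromosomes 11 and 15, which also hold HoxB and HoxC. With counts this low the exact Poisson interval of each of these clusters overlaps that of every Hox window, also for Dlx1/2, whose density was the highest (2.83 to 40.1 peaks per Mb).

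**Figure D4:**
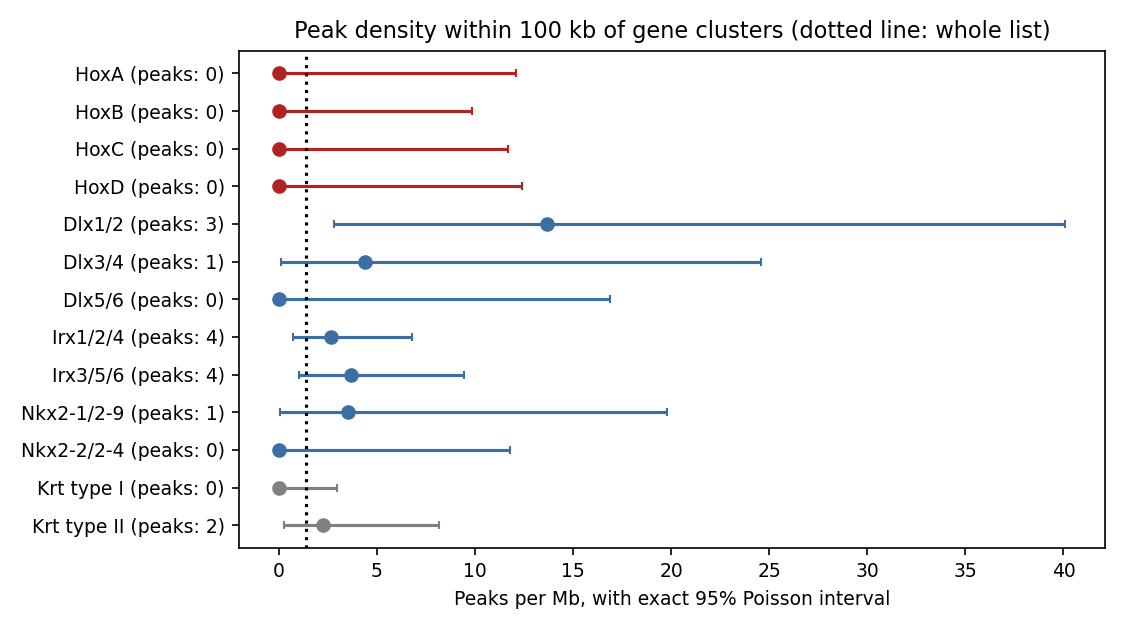
Peaks per Mb within 100 kb of the Hox clusters (red), other homeobox clusters (blue) and keratin clusters (grey), with exact 95% Poisson intervals and the number of peaks after each name. The dotted line is the whole list, 1.40 peaks per Mb, and it lies inside the interval of each Hox cluster.

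Relatives of the Hox family were, like the Hox genes, nearest to no peak, while 15 of 30 homeobox genes of the eye were nearest to one. Among 15 relatives of the Hox family (Evx, Gsx, Cdx, Pdx, Gbx, Mnx, Meox and En genes), 0 was the nearest gene to a peak (95% Wilson interval 0 to 20.4%, against 11.1% of all genes), and 4 had one within 100 kb (26.7%, against 34.9%). The interval treats genes as independent. Evx1 and Evx2, which sit at the ends of HoxA and HoxD, were 266 and 104 kb from a peak. Both lie inside the empty Hox windows, so their lack of a nearest peak partly repeats the Hox result. Of 26 further homeobox genes with main roles outside the eye, 2 were nearest to a peak (7.69%), Nkx2-1 and Shox2, with 1 each, and 11 had one within 100 kb (42.3%). Of 30 homeobox genes of the eye and retina, 15 were nearest to a peak (50%, interval 33.2 to 66.8%) and 24 had one within 100 kb (80.0%). Barhl2 and Meis1 had 4 peaks each, Irx5 and Onecut1 2 each. Lists were not tested against each other, and no difference between them is called.

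Genes listed as Hox cofactors, mostly for proteins that bind DNA together with Hox proteins, often had peaks. Over all protein-coding genes, 11.1% were nearest to a peak and 34.9% had one within 100 kb. Of the 11 cofactor genes, 6 were nearest to a peak (54.5%, 95% Wilson interval 28 to 78.7%) and 8 had one within 100 kb (72.7%). Meis1 had 4 and Pknox2 2, all inside the genes, Pbx3 had 1 inside the gene, and Meis3 had 1 at 1.59 kb. Meis1 and Meis2 are also in the eye list, since Meis factors act in retinal progenitors without Hox partners. Of 21 genes for regulators of Hox loci, mostly Polycomb and Trithorax group, 7 were nearest to a peak (33.3%, interval 17.2 to 54.6%) and 12 had one within 100 kb (57.1%). Cbx8 and Phc2, subunits of Polycomb repressive complex 1, had 2 each, and Jarid2 had 1. Retinoic acid is the signal that switches on Hox genes in the hindbrain. Of 14 genes of its signalling, 2 were nearest to a peak (14.3%), Crabp1 and Rxra, with 1 each. A peak within 100 kb was found for 6 (42.9%). Both shares were near those of all genes, which their 95% Wilson intervals held (4.01 to 39.9% and 21.4 to 67.4%).

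**Figure D5:**
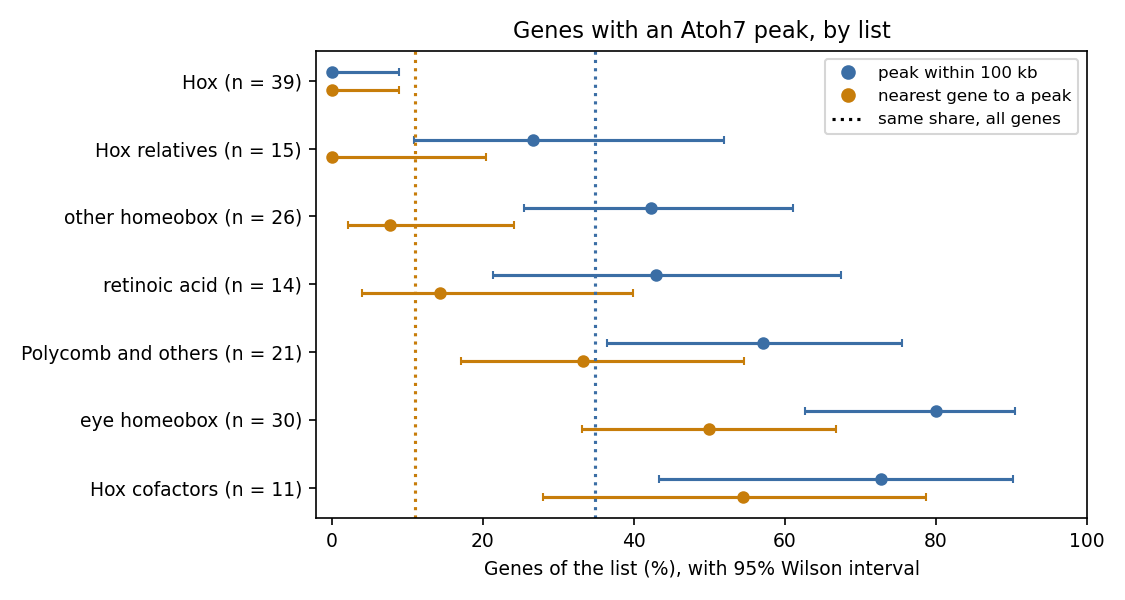
Percent of genes in each list with a peak centred within 100 kb (blue) and of genes nearest to a peak within 100 kb (orange), with 95% Wilson intervals, which treat genes as independent. Dotted lines give the shares over all protein-coding genes, 34.9 and 11.1%. Both Hox points are at 0, where the blue one fixes the orange one. Both eye homeobox points lie to the right of their lines.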

How the data were processed

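Per the submitters' processing notes, the authors used MACS2 2.2.7.1, bedtools, Picard 2.0.1, SAMtools and Bowtie2 2.3.5, with mm10 as the build, on CUT&RUN libraries from mouse retina. The notes give neither order nor settings, nor the use of the replicate 2 and IgG libraries. The deposited list gives start, end and width in bp, counted from 1, per the file headers. Groups came from the sample titles.

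Peak midpoints were counted in windows of 100 kb around each Hox cluster, and distances run from a gene's end to a midpoint, or are 0 inside a gene. Segments were tiled from the first to the last gene or peak of a chromosome, assembly gaps and the Hox windows included. All protein-coding genes of RefSeq's GRCm38.p6 table were used as background, and no test was run, since 1 list has no replicates. Named genes were the Hox genes, the genes at bordering peaks, window neighbours and up to 4 members per list with the most peaks, and some items that the rule names are not reported here. The Hox genes, lists and rules were chosen with earlier results of these data known. Promoters printed were chosen after their letters were seen. Alternatives were other distances, any overlap of 1 bp, the wider 50% of peaks, known genes only and other segments. The scripts were tested on simulated data. The software was scipy 1.17.1, pandas 2.3.3, matplotlib 3.10.9 and numpy 2.4.6 under Python 3.11.15.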

Additional observations from a re-analysis of the deposited data

How the results depend on the processing

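The count of 0 peaks and of 0 Hox genes with a peak was the same for any overlap of 1 bp. At 10 and 50 kb, for the wider 50% of peaks and without predicted genes it was also 0, but these settings could give nothing else, since they search within the same empty windows, use part of the same peaks or leave the Hox genes as they are. At 200 and 500 kb there were 3 and 12 peaks and 12 and 39 Hox genes within reach of one, with 0 nearest to one at either distance. Gene-dense segments without a peak for HoxA, HoxB, HoxC and HoxD made up 56.6, 50.8, 57.9 and 56.7% with a threshold of 0.5 times the genes, 72.6, 68.1, 71.8 and 73.1% with no condition on genes, and 66.8, 65.8, 70.2 and 70.3% with the wider 50% of peaks. On the cluster's own chromosome, an alternative chosen after seeing the data, HoxB, HoxC and HoxD gave 22.9, 30.0 and 64.3%. Moved tiles and any overlap stayed within the intervals. For nearest genes within 10 kb, 9 eye homeobox genes, 0 of the homeobox genes outside the eye and 1 retinoic acid gene had a peak. The counts of Hox cofactors and locus regulators stayed the same there. With the wider 50% of peaks, 10 eye homeobox genes, 3 Hox cofactors and 3 locus regulators had one. So did 1 homeobox gene outside the eye and 1 retinoic acid gene. Relatives of the Hox family stayed at 0 under both settings. Both settings can only lower a count, in any list. The share of all genes nearest to a peak is not given for them, so a drop in a list cannot be told from a general one. At 50 kb, Dlx1/2 and Nkx2-1/2-9 had 0 peaks. No paired analysis was possible because the list holds no value per library, and for the same reason no library could be left out. Read depth is unknown and limits what an absent peak can show.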
